A study of Mus musculus with 24 samples.

Results

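BMS754807 alone was set against control in mouse tumours of a series on pancreatic ductal adenocarcinoma (PDAC). All 6 tumours whose titles name BMS754807 as the only agent and all 6 whose titles name control entered, which is 12 of the 24 samples, and each of 19505 genes was compared between them. Control tumours were labelled as treated with vector. The other 12 tumours had received hydroxychloroquine alone (6) or hydroxychloroquine together with BMS754807 (6, called the combination). They share no sample with the comparison and are used here for the estimate of the spread and for setting the same agent side by side in other tumours. The labels give no strain, age, tumour model, dose or treatment time. They also do not say that each sample is a different animal, so a p here measures only the spread between samples, which may be technical.

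BMS754807 is a small molecule that blocks the kinases of the insulin-like growth factor 1 receptor (IGF1R) and the insulin receptor. Both receptors phosphorylate the adaptor proteins IRS1 and IRS2, which switch on PI3K and AKT. AKT promotes growth, glucose use and lipid synthesis and keeps the FOXO transcription factors out of the nucleus. In PDAC, insulin-like growth factors come largely from the fibroblasts and macrophages around the carcinoma cells.

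RNA was measured on Clariom S arrays, and the values are log2 signals as the authors deposited them. Medians of the 12 arrays lay between 6.80 and 7.03 log2, and correlations between any pair of them across genes between 0.977 and 0.994. Keratins of ductal epithelium were bright in every tumour: Krt8 lay between 16.13 and 16.48 log2 in control and between 16.25 and 16.65 with BMS754807. Of the epithelial and ductal markers 12 of 18 measured were well expressed, meaning a mean over the 24 arrays of 8 log2 or more. By the same measure 0 of 15 markers of pancreatic acinar cells and 1 of 13 of islets were well expressed. Well-expressed genes numbered 8895, and they included 1 of 1412 olfactory and vomeronasal receptor genes (0.0708%), which most tissues do not use.

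Across the whole profile no gene passed the test. With an adjusted p under 0.05 in limma, 0 of 19505 genes differed (0%), and the smallest adjusted p was 0.235, for Zfp280b. At an unadjusted p under 0.05, 543 genes lay higher with BMS754807 (2.78%) and 603 lower (3.09%), where 975 in all would be the average by chance. The genes divided evenly by direction, with 9780 higher (50.1%) and 9690 lower (49.7%), and the median difference was 0.002 log2. A difference of 2-fold or more was reached by 60 genes upwards (0.308%) and by 20 downwards (0.103%).

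The arrays bound most differences. The 95% confidence interval of the difference lay within 2-fold in both directions for 17808 genes (91.3%) and for 8462 of the 8895 well-expressed genes (95.1%). The interval of 433 well-expressed genes reached a 2-fold difference. The median SE was 0.19 log2 over all genes and 0.15 over well-expressed ones. The contrast between the groups took up 8.46% of the summed variance of all genes over the 12 tumours. The skeletal muscle score, which averages 22 muscle markers after centring each on its mean of all 24 tumours, took up 19.1% by itself, and the adipocyte score over 16 markers 16.3%.

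Muscle transcripts were abundant in 3 of the 12 tumours, in both groups. The skeletal muscle score reached 3.17 log2 in control tumour 5, 3.57 in BMS754807 tumour 2 and 2.52 in BMS754807 tumour 6, and it ran from -1.78 to 0.10 in the other tumours. Acta1, the actin of skeletal muscle fibres, stood at 14.02 log2 in control tumour 5, 14.12 in BMS754807 tumour 2 and 13.93 in BMS754807 tumour 6. Its level was 9.51 in control tumour 1, 8.55 in BMS754807 tumour 1, 7.86 in BMS754807 tumour 3, and between 4.33 and 5.64 in the remaining tumours. The groups thus overlapped over nearly the whole range of Acta1. In bulk tissue, more cells of a type and more RNA per cell cannot be told apart.

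Fat transcripts stood out in 1 tumour. The adipocyte score was 3.25 log2 in BMS754807 tumour 6 and 1.33 in BMS754807 tumour 2. In control tumours it ran from -0.64 to 0.74, and the lowest of all 12 was BMS754807 tumour 3 at -1.29. Adipoq, the hormone adiponectin that fat cells secrete, had its lowest and its highest level both with BMS754807 (3.82 and 14.18 log2, median 10.05), around control levels of 6.20 to 9.59 with a median of 8.86. Tumours with a score of 1.5 or more were counted as rich, which makes control tumour 5 and BMS754807 tumours 2 and 6 rich in muscle and BMS754807 tumour 6 also rich in fat. Leaving them out keeps 5 control and 4 BMS754807 tumours. The other 12 tumours all stay in that fit and enter its SEs. Among them hydroxychloroquine tumour 5 (muscle score 5.89), combination tumour 1 (4.60) and hydroxychloroquine tumour 1 (adipocyte score 1.85) also stood above 1.5.

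**Figure D1:**
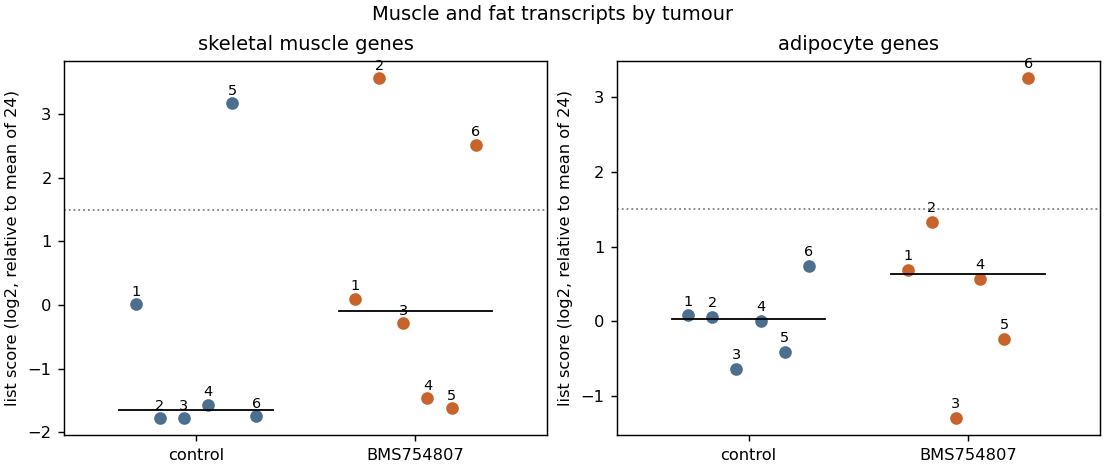
Score of the skeletal muscle list (left) and the adipocyte list (right) in each of the 6 control and 6 BMS754807 tumours, in log2 relative to the mean of all 24 tumours, with the tumour number beside each point, a line at each group's median and a dotted line at 1.5, above which a tumour was counted as rich. Control tumour 5 (3.17) and BMS754807 tumours 2 (3.57) and 6 (2.52) stand above the line for muscle, and BMS754807 tumour 6 (3.25) alone for fat.

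Muscle and fat genes made up a large share of the genes furthest above control. Of the 60 genes at least 2-fold higher with BMS754807, 15 followed the muscle score and 11 the adipocyte score (together 43.3%, against 222 of all 19505 genes, 1.14%). Following was defined in the other 12 tumours, as a correlation of 0.8 or more with the score. Many of these followers, among them Acta1, Myh4, Atp2a1 and Adipoq, are themselves members of the scores. Those members were nearly bound to follow, which raises the share. The 3 largest differences of all were of contractile genes, and Atp2a1 was close to them: the myosin heavy chains Myh8 (2.33 ± 2.18 log2, SE, n = 6 per group) and Myh4 (2.29 ± 2.52), Acta1 (2.21 ± 2.18) and the calcium pump Atp2a1 (1.98 ± 2.29). Each of these SEs is about as large as the difference itself. Without all 3 rich tumours the 4 differences were 1.23, 1.02, 1.202 and 0.83. Without BMS754807 tumours 2 and 6 alone, which keeps the muscle-rich control tumour 5, they were -0.12, -0.54, -0.21 and -0.65.

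Without the rich tumours 50.6% of all genes lay lower with BMS754807. There, 49 genes were at least 2-fold higher (0.251%) and 27 lower (0.138%), of which 19 and 9 were also 2-fold with all 12 tumours. The muscle list lay higher in 21 of 22 members, by a median of 1.02 log2, and by 0.55 without the rich tumours. With both scores as covariates in the fit that median was 0.04. The muscle score averages these same genes, so that median was bound to be small. The adipocyte list lay higher in 15 of 16 members by a median of 0.84, and in 6 of 16 by -0.10 without the rich tumours. Adipoq went from 1.48 ± 1.51 to -0.44 ± 1.65. None of the 20 genes at least 2-fold lower with BMS754807 followed either score. The 145 muscle-following genes of the array had a median difference of 0.24, which was 0.06 without BMS754807 tumour 2 and 0.41 without control tumour 5. For the 77 fat-following genes it was 0.20, and 0.04 without BMS754807 tumour 6.

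**Figure D2:**
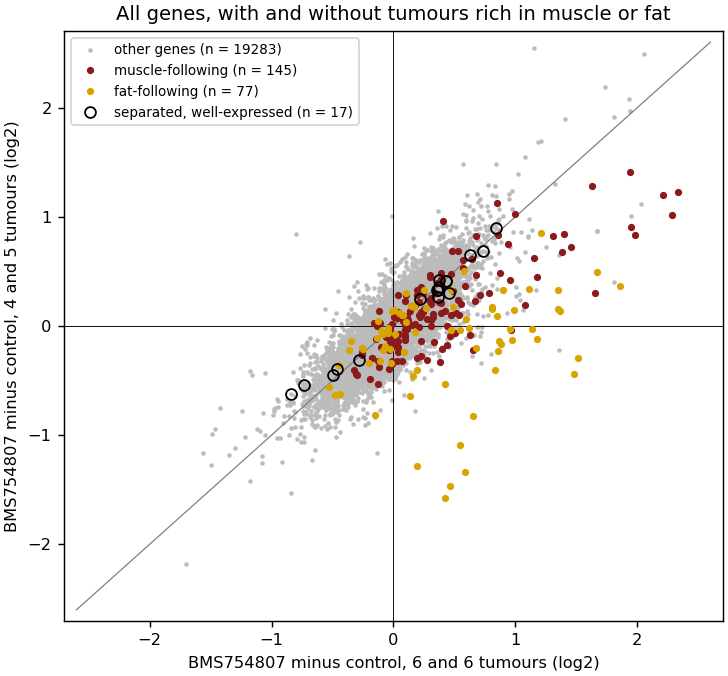
Difference between BMS754807 and control (log2) of each of 19505 genes over all 12 tumours (horizontal) and without the 3 tumours rich in muscle or fat (vertical), with equality as the diagonal. Of the muscle-following (n = 145) and fat-following (n = 77) genes, 15 and 11 were at least 2-fold higher over all 12 tumours. These 15 and 11 genes lie below the diagonal. Medians of the whole sets were 0.24 and 0.20 log2. The 17 well-expressed genes whose groups did not overlap (circles) lie near the diagonal.

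Among the 8895 well-expressed genes, 12 had all 6 BMS754807 tumours above all 6 control tumours (0.135%) and 5 had all 6 below (0.0562%). Over all 19505 genes the counts were 20 (0.103%) and 14 (0.0718%). These 17 genes were picked for lack of overlap, so their levels and differences are given as a description. With this many genes some separate by chance alone, and the counts were not compared with chance. The distance between the groups was small, from 0.01 to 0.21 log2, where the gap is the lowest value of the higher group minus the highest of the lower. Just outside, Diablo, Rhob and Uhrf1 had a gap of 0. None of the 17 followed the muscle or adipocyte score. After both scores had been taken out as covariates, 12 of them kept the groups apart (not Ccdc86, Fasn, Slco4a1, Suox and Vcam1). Genes without overlap keep their sign whichever tumours are left out, so their sign without the rich tumours tells nothing further. Without the rich tumours, where 5 and 4 tumours have to lie apart in place of 6 and 6, 128 well-expressed genes (1.44%) were separated upwards and 101 (1.14%) downwards.

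**Figure D3:**
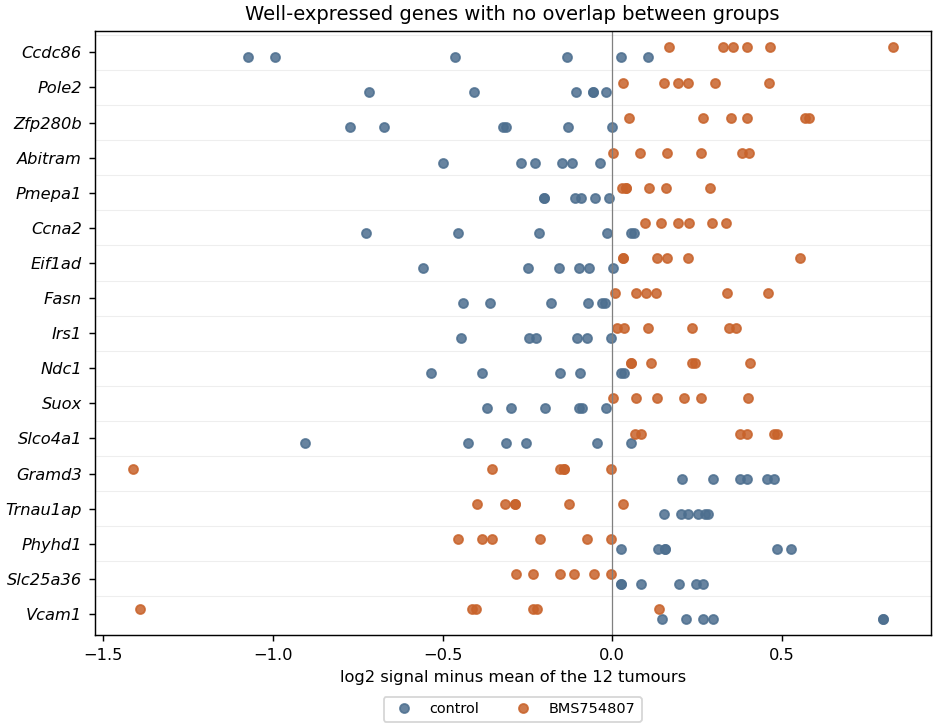
Level of the 17 well-expressed genes without overlap between groups, in each of the 6 control (blue) and 6 BMS754807 (orange) tumours, in log2 and centred for each gene on the 12 tumours. The upper 12 genes are higher with BMS754807 and the lower 5 are lower; gaps between the groups are at most 0.21 log2, in Gramd3.

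Among the higher genes were 3 of DNA replication and the nuclear envelope. Ccna2, the cyclin A2 that drives cells through S phase into mitosis, ran from 12.32 to 13.11 log2 in control (median 12.93) and from 13.14 to 13.38 with BMS754807 (median 13.26), a difference of 0.43 ± 0.14 (SE). All BMS754807 tumours lay within 0.24 log2 of each other, while control spread over more than that. Pole2, a subunit of the leading strand polymerase, ran from 8.49 to 9.19 (median 9.12) against 9.24 to 9.67 (9.41), a difference of 0.46 ± 0.18. Ndc1, a membrane protein that anchors the nuclear pore, ran from 12.17 to 12.74 (12.58) against 12.76 to 13.11 (12.88), a difference of 0.37 ± 0.14. The gaps of these 3 genes were between 0.02 and 0.05 log2, so neighbouring tumours of the groups were close. After quantile normalization Pole2 and Ndc1 no longer kept the groups apart. Without the rich tumours the Pole2 difference was 0.30 ± 0.21.

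Receptor signalling and lipid synthesis were represented as well. Irs1, the adaptor directly below the receptors that BMS754807 blocks, lay between 10.50 and 10.94 log2 in control (median 10.78) and between 10.96 and 11.31 with BMS754807 (median 11.12), a difference of 0.37 ± 0.12. Fasn, the fatty acid synthase, lay between 12.25 and 12.67 (12.56) against 12.70 and 13.15 (12.80), a difference of 0.37 ± 0.22. With the 2 scores as covariates the Fasn difference was 0.23 and that of Irs1 0.36. Pmepa1, a membrane protein induced by TGF-beta that dampens Smad signalling, was the brightest of the 17 at 14.96 to 15.15 (15.06) against 15.19 to 15.45 (15.23), a difference of 0.22 ± 0.10.

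The largest difference of the 12 belonged to Ccdc86, a nucleolar protein, with 8.10 to 9.28 log2 in control (median 8.88) and 9.34 or more with BMS754807 (9.55), a difference of 0.84 ± 0.19. Zfp280b, a zinc finger gene, came next at 0.74 ± 0.13, from 7.74 to 8.51 (8.20) against 8.56 to 9.09 (8.88). Slco4a1, an organic anion transporter, had a difference of 0.63 ± 0.24. The remaining 3 were Abitram (0.43 ± 0.15), Eif1ad (0.38 ± 0.13) and the sulfite oxidase gene Suox (0.36 ± 0.19).

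Of the 5 lower genes, Vcam1, an adhesion molecule that captures leukocytes, had the largest difference. Its level was 13.99 to 14.64 log2 in control (median 14.12) and 12.45 to 13.98 with BMS754807 (13.53), a difference of -0.84 ± 0.24. BMS754807 tumour 6 had the 12.45 and the other 5 treated tumours lay between 13.43 and 13.98, so the groups nearly touch. Gramd3 also had its lowest value in that tumour, 8.03, and 9.09 to 9.44 in the other treated tumours, below 9.65 to 9.92 in control (difference -0.74 ± 0.24). Trnau1ap, which serves the incorporation of selenocysteine into proteins, was tight in control at 9.60 to 9.73 and ran from 9.05 to 9.48 with BMS754807 (-0.46 ± 0.14). Phyhd1, a dioxygenase gene, stood at -0.50 ± 0.13 and Slc25a36, a mitochondrial carrier of pyrimidine nucleotides, at -0.28 ± 0.10.

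The same agent could be followed in the 12 tumours that also had hydroxychloroquine. Between combination and hydroxychloroquine alone, 11 of the 12 higher genes again lay higher with BMS754807 and 1 of the 5 lower genes lower. Among all well-expressed genes 63.5% lay higher and 36.3% lower with the combination there, against 50.2% higher in the comparison with control, and 51.7% had the same sign in both. Over all genes 51.8% lay higher there, and 5.39% had an unadjusted p under 0.05. Slco4a1 repeated its size, at 0.57 ± 0.24 (unadjusted p = 0.0273, adjusted p = 0.902 in limma). Ccna2 stood at 0.23 ± 0.14, Ndc1 at 0.23 ± 0.14, Pole2 at 0.25 ± 0.18 and Fasn at 0.18 ± 0.22, and Irs1 at 0.04 ± 0.12. Vcam1 stood on the other side, at 0.36 ± 0.24. The test of the difference between both comparisons (interaction) gave an unadjusted p of 0.00200 and an adjusted p of 0.885 for Vcam1, and it passed for 0 genes.

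Promoter sequence was read for genes of cell division and lipid synthesis, whose list members lay higher together, as given further on. Promoters are RefSeq's for build GRCm38.p6, from 250 bases before to 50 after the gene's start. Both strands were searched, with overlaps allowed, for E2F sites (TTTGGCGC, TTTCCCGC, TTTCGCGC or TTTGCCGC), for CCAAT boxes (CCAAT) and for the cell cycle homology region, CHR (TTTGAA). The stretches below show those of Ndc1, Pole2, Fasn and Prc1, a G2 and M phase gene described further on, with matches in capitals and all other bases in lower case. Each of these holds a match, and Ndc1 and Pole2 are not members of the cell cycle lists. Among other promoters read, those of Ccne1, Irs1, Ccdc86 and Abitram held no match. Those of Bub1 and Rrm2 held CCAAT matches only. The Pole2 match and the ATTGG matches in Fasn are on the opposite strand, and the Pole2 match lies 10 bases after the start. In Prc1, from the downstream of its 2 listed starts, the CHR lies 30 bases and the CCAAT box 62 bases before the start, in Ndc1 the CHR lies 24 bases before it, and in Fasn an E2F match lies 149 bases and 3 CCAAT matches, 2 of them overlapping in part, lie 90, 62 and 59 bases before it.
Prc1, chr7:80294316-80294475, plus strand: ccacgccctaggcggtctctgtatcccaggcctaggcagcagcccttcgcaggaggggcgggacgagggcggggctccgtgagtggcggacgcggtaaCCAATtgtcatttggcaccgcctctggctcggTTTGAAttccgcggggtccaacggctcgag
Ndc1, chr4:107367887-107368046, plus strand: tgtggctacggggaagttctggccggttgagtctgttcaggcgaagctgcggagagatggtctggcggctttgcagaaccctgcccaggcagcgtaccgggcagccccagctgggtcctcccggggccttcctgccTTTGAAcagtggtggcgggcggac
Fasn, chr11:120824548-120824707, minus strand: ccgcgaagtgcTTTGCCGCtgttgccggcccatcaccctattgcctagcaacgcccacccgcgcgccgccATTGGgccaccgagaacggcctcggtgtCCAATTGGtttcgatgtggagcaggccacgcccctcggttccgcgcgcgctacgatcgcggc
Pole2, chr12:69228162-69228191, minus strand: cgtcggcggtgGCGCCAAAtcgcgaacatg

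A match is a run of letters, not evidence that a factor binds. Of 15691 genes on the array with a promoter in the table, 17.8% held a CHR, 42.2% a CCAAT box and 3.38% an E2F match. Of the 12 higher genes 10 had a promoter, with a CHR in 2 (Ndc1 and Eif1ad), a CCAAT box in 4 and an E2F match in 2. Of the 27 measured genes of the G2 and M phase list 23 had one, and 18 of those (78.3%) held a CHR and 18 a CCAAT box. Of the 26 measured E2F and DNA replication genes 21 had one, with an E2F match in 8 (38.1%). Of the 18 cholesterol synthesis genes 15 had one, and a CCAAT box was found in 15 (100%).

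Genes of cell division lay higher with BMS754807 throughout the list. All 27 measured genes of the G2 and M phase, when the spindle is built and chromosomes part, had a higher mean, by a median of 0.33 log2 against 0.002 over all genes, and 11 of them had an unadjusted p under 0.05 and lay higher, against 2.78% of all genes. The list score lay between -0.61 and 0.23 in control (median -0.08) and between 0.03 and 0.41 with BMS754807 (0.26). The groups overlapped, since control tumour 4 stood at 0.23, above BMS754807 tumours 2 and 4. The lowest score was that of control tumour 6 (-0.61), and without that tumour the median difference was 0.24. Without the rich tumours it was 0.30. Between combination and hydroxychloroquine 25 of 27 genes lay higher, by a median of 0.14. There 63.5% of all well-expressed genes lay higher, and their median difference was 0.05.

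Prc1, which bundles spindle microtubules, lay between 9.47 and 10.34 log2 in control (median 10.19) and between 10.30 and 10.86 with BMS754807 (10.55), a difference of 0.52 ± 0.17 (adjusted p = 0.793). Bub1, a kinase of the spindle checkpoint, lay between 10.12 and 11.23 (10.60) against 10.72 and 11.32 (11.24), a difference of 0.48 ± 0.17 (adjusted p = 0.801). In both genes the ranges overlapped: control tumours 3 and 4 lay above BMS754807 tumours 1 and 4 for Prc1, while for Bub1 control tumours 2 and 4 lay above BMS754807 tumour 4 and control tumour 4 also above BMS754807 tumour 1. Mki67, a general marker of cycling cells, stood at 14.41 to 15.51 (15.21) against 15.27 to 15.55 (15.43), a difference of 0.32 ± 0.16. All 6 treated tumours lay above 5 of the 6 control tumours, and control tumour 4 lay among them.

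Among E2F and DNA replication genes, which license and copy the genome, 23 of 26 lay higher, by a median of 0.22, against 50.1% of all genes. Of the 26, 6 lay higher at an unadjusted p under 0.05, against 2.78% of all genes. Ccne1, the cyclin E1 that opens S phase, ran from 7.09 to 8.49 log2 in control (median 8.10) and from 8.21 to 8.97 with BMS754807 (8.88), a difference of 0.84 ± 0.23 (adjusted p = 0.793). Ccne2, the cyclin E2 gene, ran from 8.76 to 9.45 (9.04) against 9.21 to 9.89 (9.63). Rrm2, which makes deoxyribonucleotides, ran from 11.91 to 12.59 (12.35) against 12.49 to 13.17 (12.87). Their differences were 0.51 ± 0.15 and 0.59 ± 0.19, and in each gene all 6 treated tumours lay above the control mean although the ranges overlapped. Genes of the replicative helicase were uneven: Mcm5 stood at 0.35, Mcm2, Mcm3 and Mcm4 between 0.12 and 0.14, and Mcm6 at -0.06. Of MYC and ribosome biogenesis genes 18 of 23 lay higher, by a median of 0.08, with Rrp12 (0.70 ± 0.21) and Nolc1 (0.46 ± 0.16) of ribosome assembly beside Ccdc86.

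Of 20 measured IGF and insulin signalling genes 10 lay higher and 10 lower, with a median of 0.00. They ranged from -0.34 ± 0.26 for Insrr, a relative of the insulin receptor, to 0.48 ± 0.48 for Grb10, an adaptor that restrains both receptors, and Irs1 alone had an unadjusted p under 0.05. Igf1r ran from 11.33 to 11.89 log2 in control (median 11.70) and from 11.26 to 12.05 with BMS754807 (11.64), and Insr from 13.11 to 13.51 (13.35) against 13.09 to 13.52 (13.33). The 95% interval of the difference was -0.36 to 0.32 for Igf1r and -0.28 to 0.23 for Insr, which bounds the size of a difference at this number of arrays. The ligand gene Igf1 varied widely within both groups, from 10.84 to 13.12 (11.97) against 11.55 to 13.79 (11.82), and Igf2 was low throughout, at 4.45 to 6.32 (5.23) against 4.93 to 5.61 (5.36). Irs2, the other main adaptor, stood at 9.21 to 10.58 (10.44) against 9.30 to 10.31 (9.90), a difference of -0.32 ± 0.28. Irs1 and Irs2 thus stood on opposite sides of control, and only Irs1 without overlap.

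IGF-binding proteins, which hold the ligands in the tissue, lay higher in 5 and lower in 7 of 12, by a median of -0.05. Igfbp3 and Igfbp5 were bright and variable: Igfbp3 ran from 13.50 to 15.22 log2 in control and from 13.57 to 15.00 with BMS754807 (difference 0.04 ± 0.28), and Igfbp5 from 14.48 to 15.77 against 14.37 to 15.68 (-0.42 ± 0.29). FOXO factors and their targets, which are transcribed when AKT is quiet, lay lower in 13 of 20, by a median of -0.06. Pck1, the gluconeogenic enzyme that FOXO1 drives in liver, was the highest of them at 1.86 ± 0.82, but it followed the adipocyte score, reached 11.01 in BMS754807 tumour 6 and lay within 3.74 to 7.37 in the other treated tumours. Without the rich tumours its difference was 0.37 ± 0.64.

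Bcl2l11, which encodes the death-promoting protein BIM and is a FOXO target, was the lowest of these genes. It lay between 10.16 and 10.57 log2 in control (median 10.30) and between 8.95 and 10.23 with BMS754807 (9.74), a difference of -0.64 ± 0.18 (unadjusted p = 0.00192, adjusted p = 0.793). Only BMS754807 tumour 5, at 10.23, reached into the control range, and BMS754807 tumour 6 was lowest at 8.95. Without the rich tumours the difference was -0.40 ± 0.19, and between combination and hydroxychloroquine it was 0.00 ± 0.18 (interaction adjusted p = 0.951). Its relative Bmf stood at -0.36, and the other apoptosis regulators measured lay between -0.34 and 0.34. Feedback genes of ERK signalling lay higher in 10 of 13, by a median of 0.12 and by 0.23 without the rich tumours.

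Lipid genes divided by direction of the pathway. All 18 measured genes of cholesterol synthesis lay higher, by a median of 0.27 log2 (0.48 without the rich tumours), with 0 at an unadjusted p under 0.05. The tumours were not of one kind: BMS754807 tumours 1, 3 and 4 had list scores of 0.77, 0.58 and 0.54, above the control range of -0.37 to 0.18. BMS754807 tumours 2, 5 and 6 had -0.53, -0.29 and -0.20, the first below the control range and the others inside it. Without BMS754807 tumour 1 the median difference was 0.17. The epithelial and ductal score was 1.12, 0.80 and 0.18 in BMS754807 tumours 1, 3 and 4 and -0.23, -1.08 and -0.98 in tumours 2, 5 and 6, and its part in the cholesterol values was not tested. In the other 12 tumours 18 of 18 lay higher with BMS754807, by a median of 0.30, where 63.5% of all well-expressed genes lay higher. Fatty acid synthesis genes lay higher in 10 of 14, by a median of 0.21. Scd1, the desaturase, ran from 12.87 to 14.46 in control and from 13.60 to 16.99 with BMS754807 (1.11 ± 0.53), with the 16.99 in the fat-rich tumour 6. Scd1 followed the adipocyte score, and its difference was 0.34 ± 0.53 without the rich tumours.

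Fatty acid oxidation genes lay lower in 14 of 17, by a median of -0.13 and by -0.19 without the rich tumours. Acot1, a thioesterase induced by fatty acids, ran from 7.93 to 8.66 log2 in control (median 8.37) and from 7.01 to 8.51 with BMS754807 (7.47), a difference of -0.75 ± 0.24 (adjusted p = 0.793). Cpt1a, which admits fatty acids to mitochondria, ran from 12.86 to 13.17 (13.06) against 12.61 to 13.09 (12.67), a difference of -0.26 ± 0.12. For Cpt1a, 4 treated tumours lay between 12.61 and 12.68, below all control tumours, and BMS754807 tumours 5 and 6 lay within the control range. Acot1 differed in direction in the other 12 tumours, at 0.33 ± 0.24 (interaction adjusted p = 0.907). Glycolysis and hypoxia genes lay lower in 13 of 20 by a median of -0.12, and stood at 0.02 without the rich tumours.

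Inflammatory and acute phase genes lay lower in 14 of 22 measured, by a median of -0.14, and 4 had an unadjusted p under 0.05, all lower, against 3.09% of all genes. Lbp was the only member among the 20 genes at least 2-fold lower. Lbp, which presents bacterial lipopolysaccharide to CD14, ran from 11.53 to 12.48 log2 in control (median 12.02) and from 10.29 to 11.87 with BMS754807 (10.91), a difference of -1.08 ± 0.24 (unadjusted p = 0.000136, adjusted p = 0.793). Only BMS754807 tumour 5, at 11.87, lay within the control range. The difference was -1.19 ± 0.28 without the rich tumours and 0.00 ± 0.24 between combination and hydroxychloroquine, with an interaction adjusted p of 0.907. Cebpd, a transcription factor of the acute phase response, stood at -0.48 ± 0.21, and at -0.45 ± 0.21 in the other 12 tumours. Il6 stood at -0.77 ± 0.34 from levels of 3.71 to 6.43, with group means under 5.30 log2, a level that nearly all olfactory and vomeronasal receptor genes stay under, and with the 6.43 in the muscle-rich control tumour 5, and at -0.39 ± 0.33 without the rich tumours.

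Vcam1 has been described above, and Tifa and Icam1 were singled out after their values had been seen. Tifa, an adaptor of NF-kappaB signalling, ran from 11.45 to 12.51 log2 in control and from 10.12 to 11.61 with BMS754807, a difference of -1.08 ± 0.28. BMS754807 tumours 2 and 4, at 11.51 and 11.61, overlapped control and the other treated tumours lay at 10.62 or lower. Icam1, a leukocyte adhesion molecule like Vcam1, stood at -0.70 ± 0.25, with control tumour 4 among the treated tumours and the other 5 control tumours above them all. Of the largest differences downwards, Cfi, the protease that inactivates complement C3b, ran from 9.53 to 11.18 (median 10.80) against 7.21 to 10.90 (8.97), a difference of -1.57 ± 0.50. Pzp, a secreted protease inhibitor, ran from 9.16 to 10.75 (9.81) against 5.98 to 9.53 (8.62), a difference of -1.49 ± 0.43. Retnla, a product of alternatively activated macrophages, had the lowest difference at -1.71 ± 1.02, and -0.86 without control tumour 3, in which it stood at 11.73.

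Reg genes, secreted lectins that inflamed pancreas and gut release, stood lower in 6 of 6 measured, by a median of -0.81, in a list chosen after values were seen. Reg3b ran from 8.90 to 11.05 log2 in control (median 9.99) and from 6.41 to 10.04 with BMS754807 (8.81), a difference of -1.50 ± 0.66. Reg1 stood at -1.47 ± 0.76, Reg3g at -1.24 ± 0.53 and Reg2 at -0.03 ± 0.30. BMS754807 tumour 6 was lowest in Reg1, Reg3b and Reg3g, and without the rich tumours the median of the 6 was -0.64. Reg genes resemble each other closely, so signal of one may contain signal of another.

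Mast cell genes, also listed after values were seen, stood lower in 7 of 8, by a median of -0.57, with 4 at an unadjusted p under 0.05, against 3.09% of all genes lower at that level. Cpa3, a protease of mast cell granules, ran from 9.98 to 11.26 log2 in control (median 10.52) and from 8.10 to 11.22 with BMS754807 (9.25), a difference of -1.22 ± 0.42 (adjusted p = 0.801). BMS754807 tumour 4, at 11.22, lay near the top of control and the other 5 treated tumours at 9.72 or lower, below all control tumours. The tryptase Tpsb2 repeated this order, at 9.64 to 10.39 against 8.41 to 10.55 with the 10.55 in tumour 4 (-0.79 ± 0.32). Kit, the receptor that mast cells need, stood at -0.69 ± 0.29, and at -0.35 ± 0.29 without the rich tumours, among them control tumour 5 at 9.37. Mcpt4, another granule protease, stood at 0.05 ± 0.26. In the other 12 tumours 6 of the 8 genes lay higher with BMS754807.

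Granzymes, the proteases of cytotoxic granules, stood higher in 5 of 7 measured and lower in 2 (Gzma at -0.07 ± 0.26 and Gzmm at -0.49 ± 0.17), in a list chosen after values were seen. Gzmc, a granzyme of activated killer lymphocytes, ran from 6.96 to 8.47 log2 in control (median 8.03) and from 8.42 to 10.50 with BMS754807 (9.76), a difference of 1.81 ± 0.45 (unadjusted p = 0.000521, adjusted p = 0.793). The groups touched only where BMS754807 tumour 2 (8.42) lay below control tumour 2 (8.47). Its neighbours Gzmf and Gzmg, named after values were seen, stood at 1.94 ± 0.57 and 1.93 ± 0.59. BMS754807 tumour 3 was highest in both, at 10.53 and 11.19. Prf1, the pore protein perforin, ran from 3.44 to 5.51 (4.33) against 4.75 to 7.01 (5.49), and Gzmb from 4.44 to 6.10 (4.59) against 4.58 to 7.30 (5.87). Their control means of 4.42 and 4.88 lie under the 5.30 log2 that nearly all olfactory and vomeronasal receptor genes stay under, so the size of these differences is uncertain. In both the ranges overlapped, and tumours 3, 1 and 6 were the highest of the treated group. These granzymes are close copies of each other and may share signal on the array.

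Markers of the killer cells themselves were nearer to control. Of 13 NK and cytotoxic genes 8 lay higher, by a median of 0.32 (0.18 without the rich tumours and 0.06 without BMS754807 tumour 6), with the low signals of Ncr1 at 0.32, Nkg7 at -0.08 and Ccl5 at -0.13, and T cell genes divided 6 to 6. Without the rich tumours Gzmc stood at 1.92 ± 0.51. Between combination and hydroxychloroquine Gzmc stood at -0.45 ± 0.45, and 2 of the 13 list genes lay higher. The interaction had an unadjusted p of 0.00171 and an adjusted p of 0.862 for Gzmc. T cell and B cell markers were highest in BMS754807 tumour 5, with a B and plasma cell score of 1.82 against -0.41 to 0.11 in the other 11 tumours. Its Gzmc level was 9.15, and the part of its lymphocyte content in the values above was not tested.

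**Figure D4:**
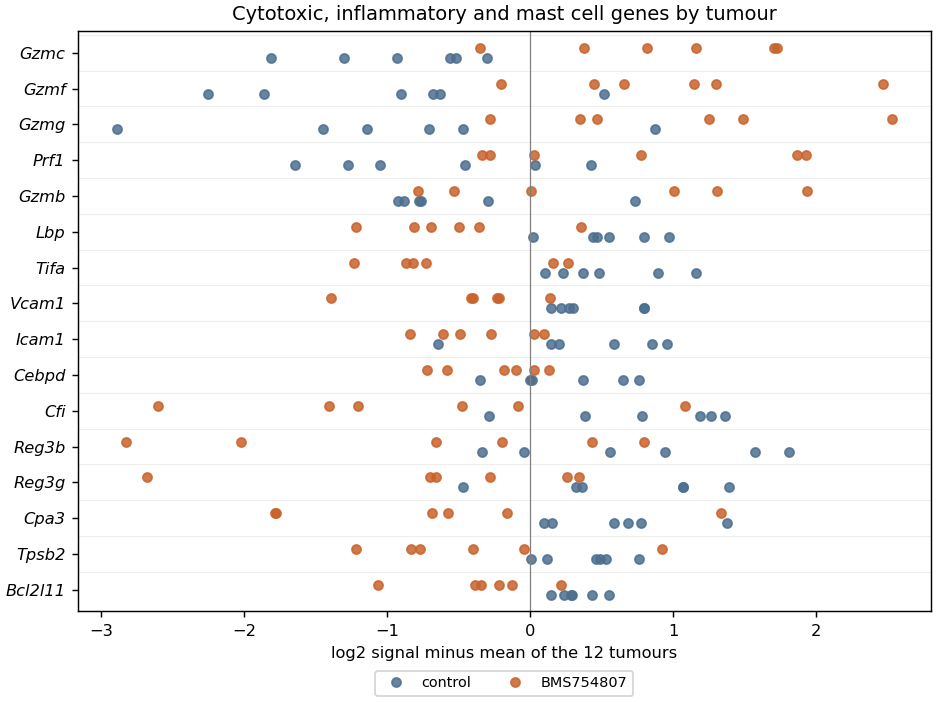
Level of 16 genes of cytotoxic granules, inflammation, the Reg family and mast cells, with Bcl2l11 last, in each of the 6 control (blue) and 6 BMS754807 (orange) tumours, in log2 and centred for each gene on the 12 tumours. Granule genes (Gzmc, Gzmf, Gzmg, Prf1, Gzmb) lie mostly to the right with BMS754807 and the other genes mostly to the left, with overlap in every gene but Vcam1. Several of these genes were chosen after values were seen. Not shown are the granzymes Gzma and Gzmm, which lay lower, and the mast cell gene Mcpt4, which lay near control.

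Lists of other cell types moved with the rich tumours or with single tumours. Genes of fibroblasts and matrix were higher for 17 of 21, by a median of 0.22, with scores of 0.94 in control tumour 5 and 1.08 in BMS754807 tumour 6, and -0.85 to 0.56 elsewhere. Without BMS754807 tumour 6 alone the median was -0.004, without control tumour 5 alone 0.42, and without all 3 rich tumours 0.32 with 15 of 21 higher. In the other 12 tumours 0 of 21 lay higher, by -0.39. Macrophage genes lay lower in 10 of 14, by a median of -0.12, with scores of 1.33 and 1.65 in the same pair of tumours and -0.73 to 0.38 elsewhere. Without control tumour 5 alone the macrophage median was 0.17, without BMS754807 tumour 6 alone -0.50, without all 3 rich tumours -0.23, and with the scores as covariates -0.41. Dendritic cell genes lay lower in 10 of 12, by a median of -0.24 and by -0.09 without the rich tumours, with Xcr1 (-0.53 ± 0.22) and Batf3 (-0.53 ± 0.23) of cross-presenting cells at levels of 2.78 to 5.01 log2, all under 5.30.

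Genes of antigen presentation and of the interferon response had different spreads. Of 14 antigen presentation genes 13 lay lower, by a median of -0.30 (-0.40 without the rich tumours), but the list score ran from -0.24 to 1.31 in control and from -0.94 to 1.18 with BMS754807, and 0 genes had an unadjusted p under 0.05. Without control tumour 6, whose score was 1.31, the median was -0.05. Interferon-stimulated genes lay lower in 19 of 25, by a median of -0.14, and by -0.37 without BMS754807 tumour 6, which had the highest score of the 12 at 1.11. Epithelial markers lay higher in 13 of 18, by a median of 0.10, and Epcam ran from 10.95 to 14.15 in control and from 10.68 to 14.92 with BMS754807. Krt19 stood at 15.22 to 15.64 against 15.50 to 15.94, a difference of 0.23 ± 0.11. The epithelial score was lowest in BMS754807 tumours 5 and 6 (-1.08 and -0.98) and highest in BMS754807 tumour 1 (1.12). The treated group thus held both ends of this score. Krt19 did not keep that order, with 15.94 in BMS754807 tumour 5 and 15.69 in BMS754807 tumour 1.

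**Figure D5:**
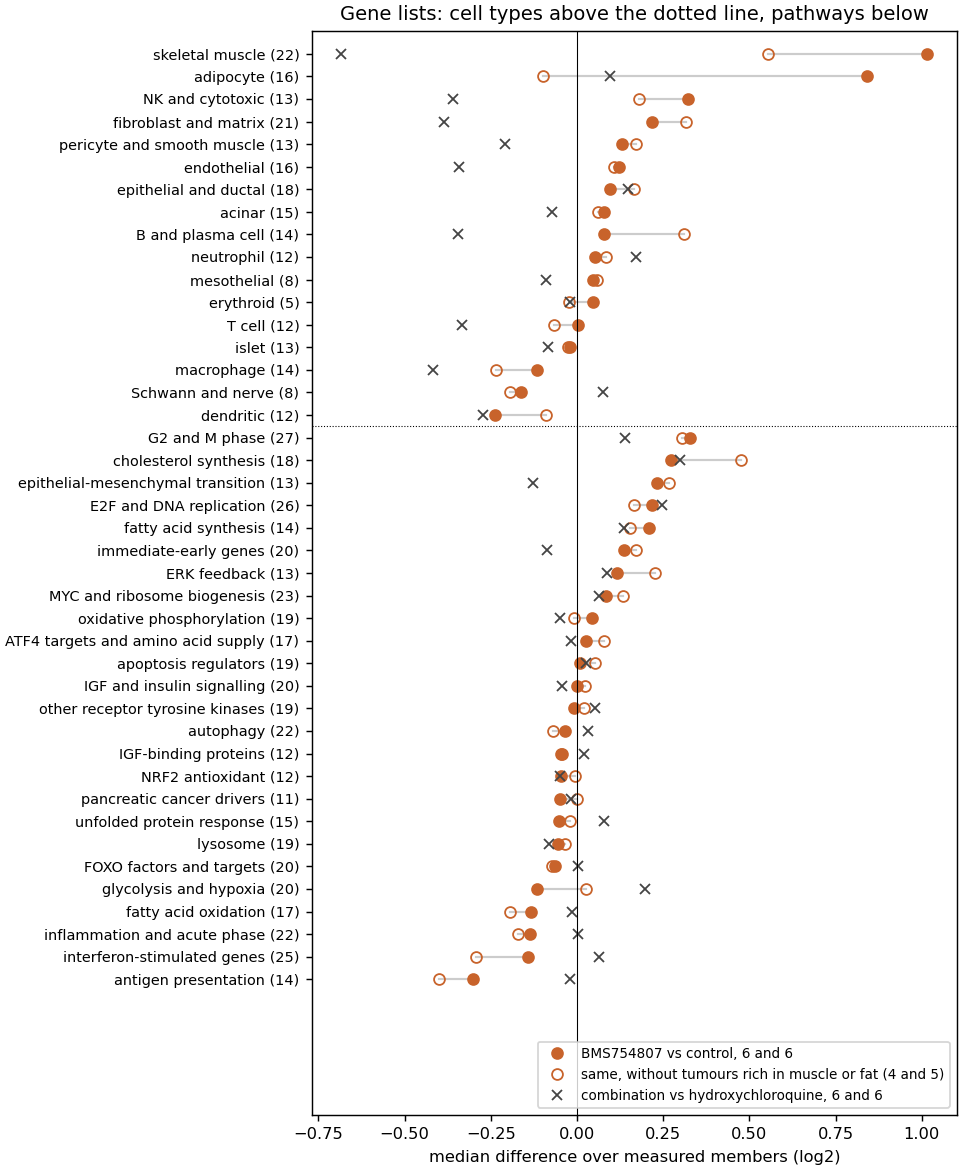
Median difference (log2) over the measured members of each of 42 gene lists, with the number of members in brackets. Filled circles compare BMS754807 with control over 6 and 6 tumours, open circles the same without the 3 rich tumours, and crosses the combination with hydroxychloroquine alone; muscle (1.02 to 0.55) and adipocyte (0.84 to -0.10) medians shift most between filled and open circles, while the G2 and M phase median moves from 0.33 to 0.30.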

How the data were processed

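Total RNA of 24 mouse tumours had been hybridised to Clariom S arrays, from 250 ng per sample per the labels. The deposited values are log2 signals per probe set of the authors' own processing, made with Transcriptome Analysis Console 4.0 per the submitters' processing notes. Log base and common scale were inferred from the values (1.45 to 19.0, with nearly equal array medians). Normalization, summarization and genome build were not given in the sources used here. The table held 22206 probe sets and 0 missing values. Symbols came from the platform annotation: 19572 probe sets had 1 symbol and 2634 none, and the probe set with the highest mean was kept per gene, which dropped 67. Arrays have no read depth, and their number limits the precision.

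One limma fit (limma 3.58.1, R 4.3.3, lmFit and eBayes) with a coefficient for each of 4 groups used all 24 arrays (20 residual degrees of freedom). Tests were two-sided, with Benjamini-Hochberg adjustment over 19505 genes and a threshold of 0.05. Unless stated, ± gives the SE of a difference with n = 6 per group, or 5 control and 4 BMS754807 without the rich tumours. A list is described by counts and medians with no test. The members, 42 gene lists (25 pathways, 17 cell types) and rules were chosen with earlier results of these data known. Genes were named by rule: well-expressed genes without overlap, up to 3 members with the smallest p under 0.05 per list, fixed genes of the IGF axis, the 5 largest differences and 3 smallest p values per direction (leaving aside predicted, olfactory, vomeronasal and antigen receptor genes), and fixed markers. Other genes given with values were chosen after these were seen: Tifa, Icam1, Gzmf, Gzmg, the Reg and mast cell genes except Reg1, Reg3b and Kit, and Krt8, Mcm genes, Bmf, Grb10, Insrr, Gzma, Gzmm, Ncr1, Nkg7, Ccl5 and Cdkn2a. Same-numbered tumours were not visibly alike: correlations of their deviations ran from -0.12 to 0.15, which cannot exclude a pairing or a batch. The fit was tested on simulated data with changes larger than any difference seen here, which does not show how well it finds smaller ones. Alternatives were other samples in the fit, a replicate block, the rich tumours left out, scores as covariates, a minimum mean of 6 log2, quantile normalization, array weights, a trended robust prior, the mean of probe sets, and each tumour left out in turn; leaving out BMS754807 tumours 2 and 6 together was added after seeing the data.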

Additional observations from a re-analysis of the deposited data

Results flagged for a closer look

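In 20 of 228 groups of 6 values examined, 1 tumour stood apart from the other 5 by more than the gap expected at the 95% level, where chance gives about 1 in 20 groups. BMS754807 tumour 6, rich in muscle and fat transcripts, was the tumour apart for low Gramd3 (8.03 log2), Vcam1 (12.45) and Pzp (5.98), for high Cspg4 (8.99), a pericyte proteoglycan, and for the scores of IGF-binding proteins (0.21) and of interferon-stimulated genes (1.11). Without it the differences were -0.53 for Gramd3, -0.65 for Vcam1, -1.01 for Pzp and 0.27 for Cspg4. Control tumour 5, rich in muscle transcripts, was apart for high Il6 (6.43), for low Igfbp5 (14.48), and for high scores of skeletal muscle (3.17), pericyte and smooth muscle (0.94), neutrophil (0.95) and lysosome genes (0.31). Without it Il6 stood at -0.44 and Igfbp5 at -0.60.

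Control tumour 3 was apart for low Ptrhd1 (4.98), without which the Ptrhd1 difference was -0.70, and for a low score of pancreatic cancer driver genes (-0.16). Control tumour 6 had the highest B and plasma cell score of control (0.11). BMS754807 tumour 4 was apart for high Eif1ad (10.95) and low Kif11 (12.66), a spindle motor. BMS754807 tumour 5 was apart for high scores of T cell (0.79) and B and plasma cell genes (1.82), and BMS754807 tumour 1 for a high mesothelial score (0.28).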

How the results depend on the processing

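The count of genes past an adjusted p of 0.05 was 0 in limma under each alternative, except that 1 gene passed without BMS754807 tumour 1 (range over the 12 removals 0 to 1): the serotonin receptor gene Htr1b at 1.01 ± 0.15 (adjusted p = 0.00982). Genes at an unadjusted p under 0.05 numbered 341 higher and 373 lower when a mean of 6 log2 was required, which leaves fewer genes to test, and 469 to 606 and 535 to 835 over the removals. Genes at least 2-fold higher numbered 32 without the fat-rich tumour, 35 with the scores as covariates and 39 with the minimum of 6 log2. Over the removals they ran from 32 (without BMS754807 tumour 6) to 94 (without BMS754807 tumour 5), and genes at least 2-fold lower from 19 to 33 (without BMS754807 tumour 4).

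Separated well-expressed genes grow in number whenever tumours are left out, since fewer must lie apart, and all 17 then remain: 128 higher and 101 lower without the muscle-rich tumours (the same without muscle-rich and fat-rich ones), 25 and 12 without the fat-rich tumour, 81 and 26 without BMS754807 tumours 2 and 6, and 16 to 37 and 8 to 44 over single removals. With the scores as covariates the counts were 30 and 15. Quantile normalization kept 12 of the 17 apart (not Ndc1, Pmepa1, Pole2, Slc25a36 and Slco4a1).

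Several differences of single genes turned sign. Without BMS754807 tumours 2 and 6 they were -0.12 for Myh8, -0.54 for Myh4, -0.21 for Acta1, -0.65 for Atp2a1, -0.04 for Adipoq, -0.057 for Igf2 and 0.05 for Reg2. Without the muscle-rich tumours, with or without the fat-rich one, Adipoq stood at -0.44 and Mcpt4 at -0.11, and without the fat-rich tumour alone Igf1 stood at -0.0093, Mcpt4 at -0.014 and Reg2 at 0.068. With the scores as covariates Igf1r stood at 0.0052, Igf2 at -0.13, Atp2a1 at -0.042, Adipoq at -0.25, Mcpt4 at -0.081 and Reg2 at 0.036. Atp2a1 and Adipoq are themselves members of those scores. Array weights put Mcpt4 at -0.091. Over single removals Igf1r ran from -0.10 to 0.057, Insr from -0.071 to 0.016, Igf1 from -0.0093 to 0.54, Igf2 from -0.10 to 0.28, Igfbp3 from -0.10 to 0.24, Epcam from -0.37 to 0.58, Mcpt4 from -0.10 to 0.19 and Reg2 from -0.26 to 0.10. The cause of these shifts was not tested.

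With a replicate block 0 genes passed, the smallest adjusted p was 0.828 and 1107 genes had an unadjusted p under 0.05, against 1146 without the block. The block changed no call. Low probe sets such as those of Il6, Prf1, Gzmb, Xcr1 and Batf3 sit where signal over background is small.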

Other observations

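Some differences outside the groups described above were large and not tied to the muscle or adipocyte score. Crabp1, a carrier of retinoic acid, ran from 6.78 to 9.98 log2 in control (median 7.88) and from 8.72 to 11.24 with BMS754807 (10.25), a difference of 2.06 ± 0.76 (unadjusted p = 0.0122, adjusted p = 0.822 in limma). It stood at 2.50 ± 0.89 without the rich tumours and at -0.01 ± 0.76 between combination and hydroxychloroquine. Control tumours 1, 2 and 3 lay between 6.78 and 7.13, below all treated tumours, and control tumours 4, 5 and 6 between 8.62 and 9.98. Htr1b, a serotonin receptor gene, ran from 10.76 to 11.16 in control and from 11.69 to 12.41 in 5 treated tumours, with BMS754807 tumour 1 at 10.82 inside the control range. Smarca1, a chromatin remodeller below the level called well expressed, was also separated, at 6.32 to 7.63 in control against 5.54 to 6.24 (-0.98 ± 0.23).

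Cdkn2a, a tumour suppressor often lost in PDAC, stood at -1.16 ± 0.62 with BMS754807, and at -0.45 without the rich tumours and -0.95 between combination and hydroxychloroquine. Flt1, a VEGF receptor of endothelium, reached at most 13.63 log2 in control and at least 13.35 with BMS754807 (0.41 ± 0.18), while endothelial genes as a list stood at a median of 0.12, at -0.16 without BMS754807 tumour 6 alone, at 0.40 without control tumour 5 alone and at 0.11 without all 3 rich tumours.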
